A study of Homo sapiens with 36 samples.

Results

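The untreated state of 2 acute myeloid leukemia (AML) cell lines, MOLM13 and OCIAML3, was compared in their vehicle libraries, which hold 6 of the 36 libraries of the series. The members were chosen by label alone: the 3 MOLM13 and the 3 OCIAML3 libraries treated with DMSO, the solvent of the drugs, for 24 h. Both lines carry the genotype label WT, meaning unedited, and both express HOXA genes. MOLM13 was established from an AML with monocytic features and carries the KMT2A-MLLT3 fusion and an internal tandem duplication of FLT3, while OCIAML3 carries a mutated NPM1 together with NRAS and DNMT3A mutations. Each line is 1 established culture, so its 3 libraries, labelled as biological replicates, are repeats of 1 line, and the p-values measure the spread between these repeats. MOLM13 was grown in RPMI with 10% fetal bovine serum and OCIAML3 in alpha-MEM with 20%, so the effects of line and medium cannot be told apart. The comparison addresses what already differed between the lines before cytarabine or daunorubicin was given. Drug response itself was not measured in these libraries, and genes on chromosomes X and Y were left out.

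The libraries held 31282324 to 45364994 estimated read counts (median 32436142). A level of 3 counts in 1 library, the limit that a count of 0 allows, was 0.0684 to 0.106 CPM (counts-per-million). On the log2 CPM scale the libraries of 1 line correlated at r = 0.993 to 0.995 across genes and those of different lines at 0.869 to 0.876. Markers of other cells were mostly missing. Of 20 erythroid and megakaryocyte markers, 14 were under 1 CPM in every library. The list's summed level was 55.1 to 66.4 CPM in MOLM13 and 25.2 to 27.2 CPM in OCIAML3, and its defining globin genes stayed under 1 CPM. Of 25 T, NK and B cell markers 19 were under 1 CPM throughout, with CD3E, CD2 and LCK at 0. Of the 6 tested, 3 were called higher in MOLM13 and 2 in OCIAML3. TRAC, the constant part of the T cell receptor alpha chain, was at 4.95, 4.87 and 5.90 CPM in MOLM13 and at 0 in OCIAML3. The sum of the 25 markers was 42.3 to 57.2 CPM in MOLM13 and 123 to 136 CPM in OCIAML3. NCAM1 alone, an adhesion molecule also found on AML blasts, gave 119 to 130.0 CPM in OCIAML3. Of 15 markers of non-blood cells 9 were under 1 CPM, with ALB and CDH1 at 0. The sum was 90.6 to 168 CPM in MOLM13 and 73.9 to 109 CPM in OCIAML3. Of the 6 tested, 3 were called higher in MOLM13 and 1 in OCIAML3. The lines' own signs were present: FLT3 was high in MOLM13, the HOXB genes were found in OCIAML3 and HOXA9 was found in both. CD34 was at most at 0.453 CPM and KIT at most at 0.451 CPM in any library, so that neither line carried these progenitor markers at more than a trace.

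Cytarabine is a nucleoside that enters cells through equilibrative nucleoside transporters, is phosphorylated stepwise by deoxycytidine kinase (DCK) and other kinases, and acts as a triphosphate that stops DNA synthesis. Its supply is lowered by cytidine deaminase (CDA), by nucleotidases that remove phosphate groups, and by SAMHD1, which hydrolyses the triphosphate. Daunorubicin is an anthracycline that enters the nucleus, traps topoisomerase II on DNA, is pumped out by ABC transporters and is reduced to a less active alcohol by carbonyl and aldo-keto reductases. Both drugs cause DNA damage that is read by checkpoint kinases and by p53, and death then depends on the balance of the BCL2 family.

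The lines differed in a large share of their genes. A gene was called when edgeR's quasi-likelihood test gave a Benjamini-Hochberg adjusted p below 0.05 and the log2 fold change of MOLM13 over OCIAML3 was beyond 1. Of 15396 genes tested, 2001 (13%) were higher in MOLM13 and 2788 (18.1%) were higher in OCIAML3, so that 31.1% were called. The median log2 fold change of all genes was -0.01 and the median absolute value 0.57. All 3 libraries of 1 line lay above all 3 of the other for 75.1% of genes, so lack of overlap alone was the rule and not a mark of any list. Each list of genes is read against the shares of 13% and 18.1%. In bulk RNA, fewer cells with a transcript and less of it per cell cannot be told apart. The plot of list shares shows how far each list lay from these shares in either direction.

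**Figure D1:**
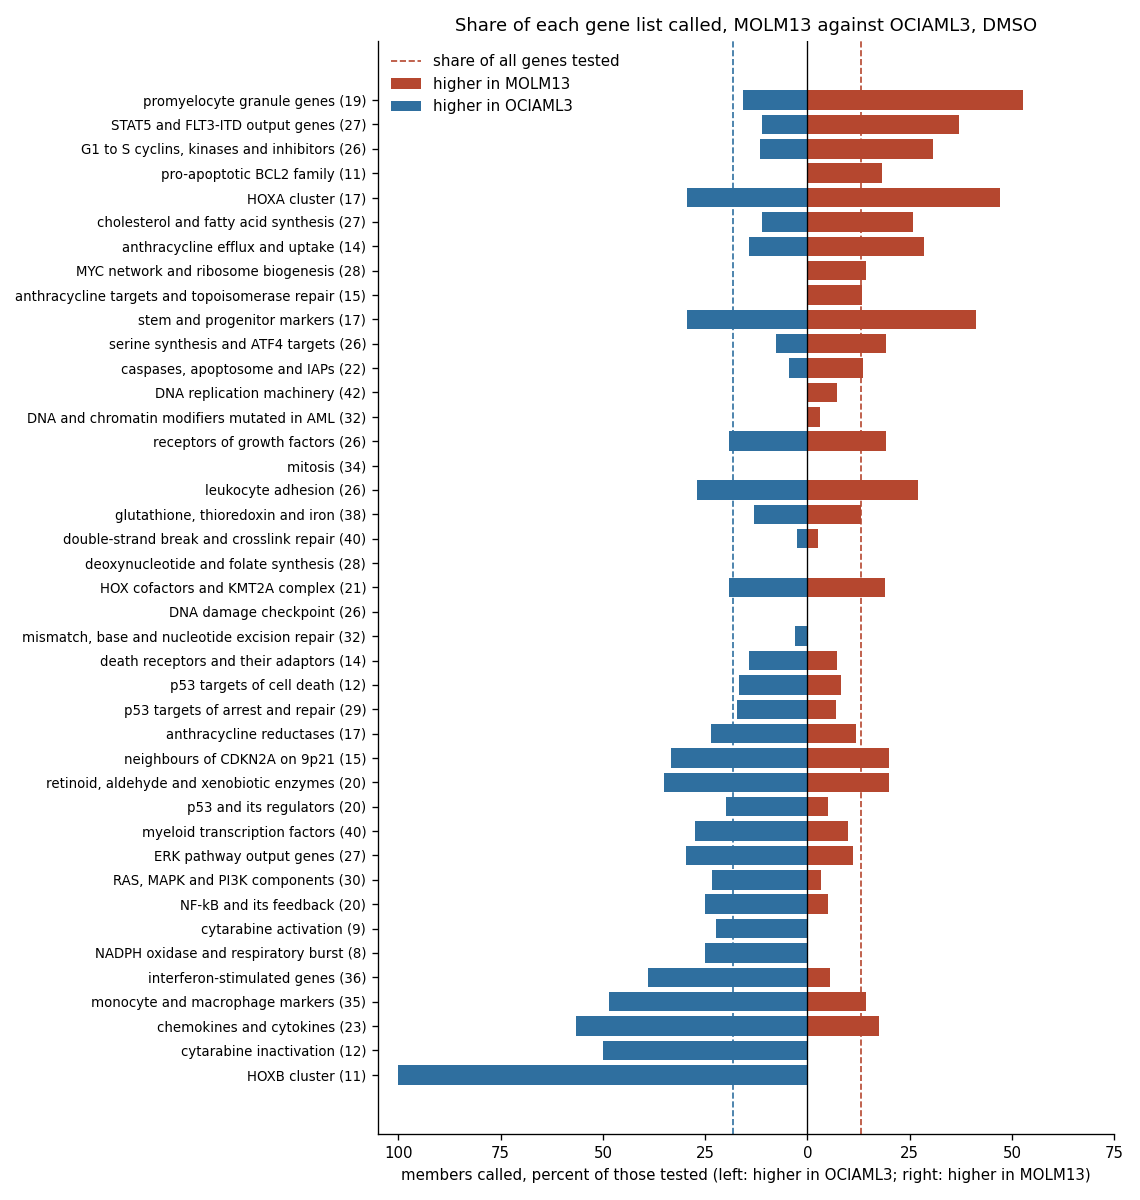
Percent of the tested members of each gene list with at least 8 tested members (number in parentheses) that were called higher in OCIAML3 (left, blue) or in MOLM13 (right, red), with dashed lines at the shares of all genes, 18.1% and 13%. All 11 tested HOXB genes and 6 of 12 cytarabine inactivation genes reach to the left, 10 of 19 granule genes reach to the right, and the lists of deoxynucleotide synthesis, checkpoint and mitosis have no bar.

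A set of genes was silent in 1 line. With a limit of 3 counts in every library of the silent line and 5 CPM or more on average in the other, 84 genes were found in MOLM13 alone, 59 of them protein-coding, and 158 in OCIAML3 alone, 141 of them protein-coding. These genes were picked by their levels, so the counts are a description. Among the 10 coding genes with the largest fitted change towards MOLM13 was DACH1, a transcriptional cofactor of early hematopoietic cells on chromosome 13. It was at 217, 181 and 210.5 CPM in MOLM13 and at 0 in every OCIAML3 library, at least 2334-fold higher. SNRPN, an imprinted gene for a spliceosomal protein, was at 91.1, 107 and 92.1 CPM against 0, and TES, a focal adhesion protein, at 38.9, 34.4 and 38.3 CPM against 0. Signalling genes were found in MOLM13 alone too, outside the 10 and chosen after their values were seen. The calcium-regulated transcription factor NFATC2 was at 74.2, 65.6 and 64.3 CPM and the lymphoid and myeloid receptor S1PR4 at 66.9, 75.7 and 67.7 CPM, against at most 0.0318 and 0.0456 CPM in OCIAML3.

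The reverse was led by ADGRA3, an adhesion G protein-coupled receptor, with 316, 324 and 314 CPM in OCIAML3 and 0 in MOLM13, at least 3056-fold higher. Homeobox genes that are not part of a HOX cluster stood next. MKX was at 146, 157 and 157 CPM and UNCX at 153, 169 and 137 CPM in OCIAML3, against 0 in MOLM13. TIMP3, an inhibitor of matrix metalloproteinases, was at 159.7, 113 and 150.2 CPM, and SERPINB9, the inhibitor of granzyme B, at 108, 91.3 and 71.9 CPM, both at 0 in MOLM13. MARCKS, APCDD1, IGFBP5, TGFBI and the chemokine CXCL1 completed the 10 largest fitted changes, each at 0 in MOLM13 and at least 479-fold higher in OCIAML3. IGFBP5 ranged from 42.4 to 146 CPM across the OCIAML3 libraries and TGFBI from 38.3 to 70.4 CPM, a wider spread than in the other genes named.

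Some of the zeros were not firm. Transcripts without a match in the annotation used, such as copies of genes on alternate assemblies, were left out and held 4.05% to 4.09% of the reads. A silent gene was named uncertain when it lies in the major histocompatibility region of chromosome 6 or when a left-out transcript of the same length held reads in the silent line alone. Of the 59 coding genes silent in OCIAML3, 15 were uncertain, 8 of them in the major histocompatibility region. Of the 141 silent in MOLM13, 7 were uncertain. BCL7A, TADA2A, TAP2, GNL1 and ZFP57, all listed at 0 in OCIAML3 and among the 10 largest in MOLM13, belonged to the uncertain genes. BDP1 and SNX19, also among those 10, are listed at 0 in OCIAML3 as well. BDP1, a subunit of the RNA polymerase III initiation factor that every cell needs, was at 60.6, 41.5 and 41.0 CPM in MOLM13, so its 0 may be a failed estimate and no fold is given. The rule did not name BDP1 uncertain. Nor did it name the tRNA synthetase gene CARS1, at 40.6, 36.6 and 34.1 CPM in OCIAML3 and at most 0.0707 CPM in MOLM13. The counts of uncertain genes may therefore be too low in both directions.

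Among the genes of cytarabine entry, 1 transporter differed in its RNA by the call rule. Uptake of the drug was not measured. SLC29A1, the main equilibrative nucleoside transporter ENT1, was at 213, 177 and 205 CPM in MOLM13 and at 162, 172 and 171 CPM in OCIAML3, a log2 difference of 0.24 ± 0.07 (SE) that was not called. SLC29A2, the second such transporter ENT2 (chromosome 11, 66362521 to 66372214 of GRCh38), was at 64.4, 49.8 and 67.6 CPM in MOLM13 and at 1.46, 1.05 and 1.46 CPM in OCIAML3. The groups did not overlap, with a 46.5-fold higher level in MOLM13 (log2 5.54 ± 0.17, edgeR adjusted p = 1.64e-08). Per transcript length, SLC29A1 was the more abundant of the 2 in both lines, at 147 against 30.4 transcripts-per-million (TPM) in MOLM13 and at 148 against 0.808 TPM in OCIAML3. The export pump ABCC4 was at 72.8 ± 2.88 CPM (SD, n = 3) in MOLM13 and 46.7 ± 3.21 CPM in OCIAML3, log2 0.64 ± 0.06, and ABCC5 at 44.3 ± 3.41 and 42.2 ± 0.456 CPM. Neither was called, and SLC29A2 was the only call among the 6 tested members of the uptake and export list.

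Activation genes were close between the lines. DCK, the first and limiting kinase, was at 80.6, 75.5 and 79.0 CPM in MOLM13 and at 66.3, 67.3 and 71.3 CPM in OCIAML3, a log2 difference of 0.20 ± 0.05 with no overlap of the libraries. CMPK1, the next kinase, was at 154 ± 3.14 and 144 ± 1.98 CPM. Of the 9 members 2 were called, both higher in OCIAML3, or 22.2% of the list against 18.1% of all genes. NME4, a mitochondrial nucleoside diphosphate kinase, was 2.71-fold higher (log2 -1.44 ± 0.05) and thymidine kinase TK1 was 2.17-fold higher (log2 -1.12 ± 0.10). The TK1 call was lost in a test against a log2 change of 1 (glmTreat). Whether these 2 kinases act on cytarabine was not tested. The list's median log2 fold change was -0.02.

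Inactivation genes were the list that leaned furthest to OCIAML3 among those of drug handling. Of the 12 members, all tested, 6 were higher in OCIAML3 and none in MOLM13, a share of 50% against 18.1% of all genes. The median log2 fold change was -1.12. Whether each member acts on cytarabine in these cells was not tested, so the share describes the list and not the drug's inactivation. SAMHD1, the triphosphate hydrolase (chromosome 20, 36890229 to 36951893), was at 95.9, 104 and 104 CPM in MOLM13 and at 353, 369 and 352 CPM in OCIAML3. All OCIAML3 libraries stood above the others, 3.53-fold on the fitted scale (log2 -1.82 ± 0.05, edgeR adjusted p = 9.11e-09). NT5E, which encodes the ecto-5′-nucleotidase CD73 on the cell surface (chromosome 6, 85449584 to 85495791), was at 33.2, 30.3 and 32.6 CPM in OCIAML3 and at 0, 0 and 0.0347 CPM in MOLM13. That is 3382 counts against 1, a ratio of 2753 with a 95% exact counting interval from 494 to 108784. NT5C3B, a cytosolic nucleotidase, was at 70.6, 71.8 and 69.7 CPM in OCIAML3 against 0.883, 2.01 and 1.21 CPM in MOLM13, 51.3-fold (log2 -5.68 ± 0.18). Its relative NT5C1A was at 4.38 ± 0.178 CPM in OCIAML3 against 0.0818 ± 0.0821 CPM in MOLM13.

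CDA, the deaminase most often named for cytarabine, was low in both lines. It was at 0.177, 0.545 and 0.139 CPM in MOLM13 and at 2.38, 1.8 and 1.81 CPM in OCIAML3 (log2 -2.78 ± 0.45, edgeR adjusted p = 0.000454). UPP1, a uridine phosphorylase, was at 2.01 ± 0.608 and 5.11 ± 0.362 CPM (log2 -1.35 ± 0.23). The UPP1 call was lost in a test against a log2 change of 1 (glmTreat). It was also lost in the fit of all 24 libraries of both lines, at -0.59. The members with the opposite sign were not called. NT5C2, the purine nucleotidase tied to thiopurine and cytarabine resistance, averaged 123 ± 7.94 CPM in MOLM13 against 80.8 ± 1.58 CPM in OCIAML3 (log2 0.61 ± 0.06), and NT5C3A was at 30.3 ± 3.06 and 26.1 ± 0.617 CPM.

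The balance of SAMHD1 to DCK was computed per library from TPM, since the triphosphate is made by the path that DCK opens and removed by SAMHD1. It was 0.608, 0.672 and 0.695 in MOLM13 and 2.55, 2.57 and 2.35 in OCIAML3, means of 0.659 ± 0.0451 and 2.49 ± 0.124. The groups did not overlap, and the exact two-sided permutation test gave p = 0.1, the smallest value that 3 against 3 libraries allow. That value follows from the lack of overlap, so the test adds nothing to the ratios and no conclusion is drawn from it. These are levels of RNA and not of enzyme activity.

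Synthesis of the competing deoxynucleotides did not separate the lines by the call rule. None of the 28 genes of deoxynucleotide and folate synthesis was called in either direction by edgeR, although the median log2 fold change was 0.19 and values ran from -0.58 to 0.80. The upper end was RRM2, the regulated subunit of ribonucleotide reductase, at 383 ± 28.3 CPM in MOLM13 against 220.1 ± 7.2 CPM in OCIAML3. Thymidylate synthase TYMS was at 361 ± 28.9 and 288 ± 23.3 CPM.

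**Figure D2:**
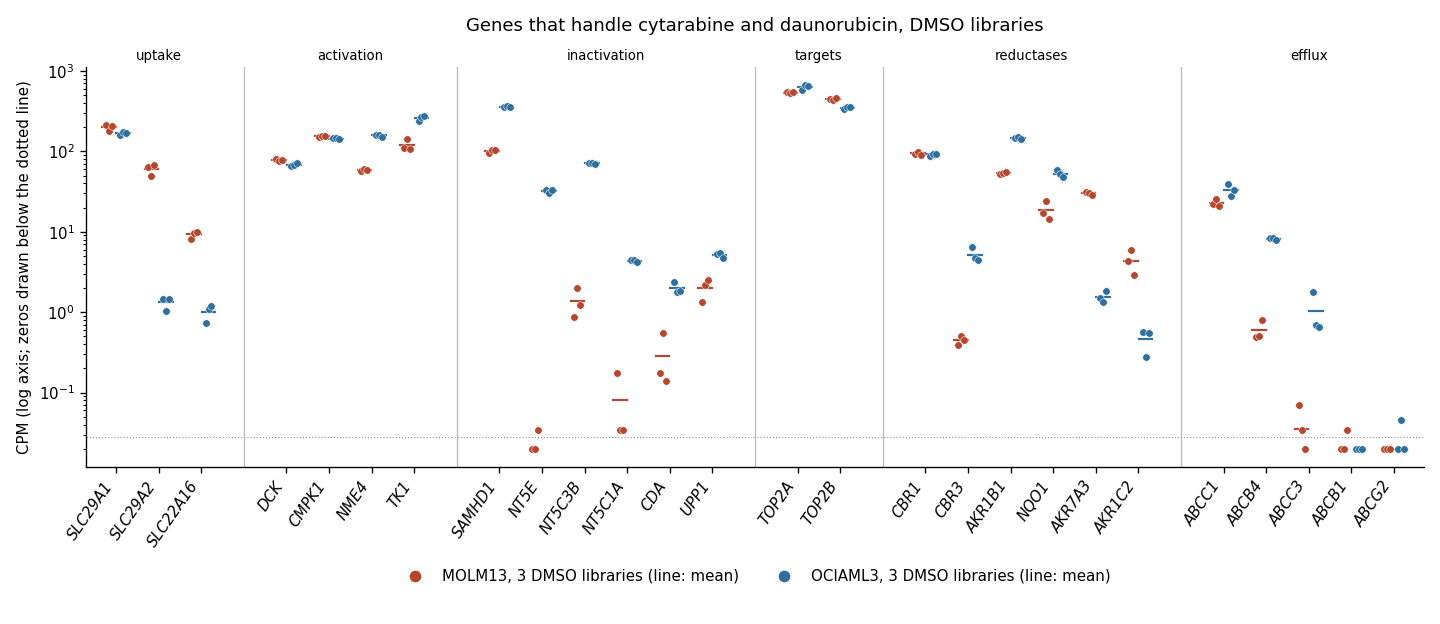
Level in counts-per-million (log axis) of genes listed for the uptake, activation, inactivation, targets, reduction or efflux of cytarabine and daunorubicin. Each of the 3 DMSO libraries of MOLM13 (red) and OCIAML3 (blue) has 1 point. A line marks each mean above the dotted line, under which zeros are drawn. Whether each listed gene acts on the drug was not tested. SLC29A2 and SLC22A16 are higher in MOLM13, while DCK, TOP2A and TOP2B lie within a log2 difference of 0.36. The 6 inactivation genes shown are those of the 12 list members that were called higher in OCIAML3. The 6 uncalled members, NT5C2 and NT5C3A among them, are not drawn.

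The targets of daunorubicin were present in both lines. TOP2A, the topoisomerase II of dividing cells, was at 545, 526 and 542 CPM in MOLM13 and at 573, 659 and 649 CPM in OCIAML3 (log2 -0.22 ± 0.06), and TOP2B, the form expressed in all cells, at 446 ± 13.1 and 348 ± 14.6 CPM (log2 0.36 ± 0.05). Of 15 genes of the targets and of topoisomerase repair, 2 were called, both higher in MOLM13, or 13.3% against 13% of all genes. RBBP8, which encodes the end resection factor CtIP, was at 77.3 ± 2.68 and 34.5 ± 4.63 CPM (log2 1.16 ± 0.09), and the chromatin remodelling subunit SMARCB1 was at 23 ± 1.53 and 11.1 ± 1.54 CPM (log2 1.06 ± 0.12). Both calls were lost with an offset for transcript length, where RBBP8 was at 0.97 and SMARCB1 at 0.52, and the SMARCB1 call also without OCIAML3 replicate 1, at 0.98. TDP2, which removes trapped topoisomerase II from DNA ends, was at 81.9 ± 3.79 and 50.4 ± 0.744 CPM and was not called.

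Reductases of the drug went both ways, with 2 of 17 tested members higher in MOLM13 and 4 higher in OCIAML3. The share called was 35.3%, against 31.1% of all genes tested. CBR1, the main carbonyl reductase of daunorubicin, was at 94.1 ± 3.86 and 91.3 ± 3.29 CPM. CBR3 was 0.45 ± 0.0612 CPM in MOLM13 against 5.19 ± 1.06 CPM in OCIAML3. The aldo-keto reductase AKR1B1 was at 54.1 ± 1.14 against 145 ± 4.57 CPM (log2 -1.43 ± 0.05). NQO1, the quinone reductase controlled by NRF2, was at 17.3, 24.2 and 14.3 CPM in MOLM13 and at 58.1, 51.9 and 47.7 CPM in OCIAML3 (log2 -1.50 ± 0.17). In the other direction AKR7A3 was at 29.9 ± 1.34 against 1.55 ± 0.24 CPM and AKR1C2 at 4.38 ± 1.56 against 0.465 ± 0.166 CPM. AKR1C2 and AKR1C3 are close in sequence, so that reads may be split between them, and AKR1C3 had the opposite sign (log2 -1.74 ± 0.38).

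Of the efflux pumps of anthracyclines, ABCB1 and ABCG2 were near the floor in both lines, while ABCC1 was well above it. ABCB1, which encodes P-glycoprotein, had no more than 0.0347 CPM in any of the 6 libraries and ABCG2 no more than 0.0456 CPM. ABCC1, the multidrug resistance protein MRP1, was at 22.2, 25.8 and 21.1 CPM in MOLM13 and at 38.7, 27.7 and 33.5 CPM in OCIAML3. All OCIAML3 libraries stood above those of MOLM13, but the log2 difference of -0.53 ± 0.13 was below the threshold and not called. ABCB4, a phospholipid translocator close to ABCB1, was at 0.601 ± 0.171 and 8.2 ± 0.23 CPM, and ABCC3 at 0.0349 ± 0.0353 and 1.04 ± 0.643 CPM. Higher in MOLM13 were SLC22A16, a carnitine transporter that also carries anthracyclines, at 8.02, 9.78 and 10.0 CPM against 0.731, 1.09 and 1.2 CPM (log2 3.19 ± 0.21, edgeR adjusted p = 1.37e-06), and ATP6V0A1, a subunit of the vesicular proton pump, at 42.9 ± 2.34 against 8.76 ± 1.47 CPM. ABCC2 and ABCC6 were the other members higher in MOLM13, at 3.12 and 7.62 CPM on average. In all, 4 of 14 tested members were higher in MOLM13 and 2 in OCIAML3.

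Redox and iron genes were split, with 5 of 38 members higher in each line. In all, 26.3% of the list was called, against 31.1% of all genes tested. TFRC, the transferrin receptor that brings in iron, was at 686, 799 and 770.0 CPM in MOLM13 and at 183, 173 and 198 CPM in OCIAML3 (log2 2.03 ± 0.07, edgeR adjusted p = 3.57e-08). GCLC, the catalytic subunit of the first enzyme of glutathione synthesis, was at 50.2 ± 5.81 and 15.9 ± 0.668 CPM, mitochondrial superoxide dismutase SOD2 at 171 ± 9.44 and 72.3 ± 5.24 CPM, and thioredoxin TXN at 238 ± 9.61 and 109.7 ± 7.8 CPM. HMOX1, the heme oxygenase induced by oxidative stress, was higher in OCIAML3 and varied there, at 17.9, 8.37 and 4.79 CPM against 0.424, 1.36 and 1.11 CPM (log2 -3.41 ± 0.54). Glutathione transferase GSTM3 was at 4.32 ± 0.424 CPM in OCIAML3 and at 0 in MOLM13, at least 41.5-fold higher. The iron store gene FTH1 was at 362 ± 63.5 and 588 ± 88.1 CPM and the master regulator NFE2L2 at 74.6 ± 7.77 and 56.3 ± 2.06 CPM, neither called.

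Few sensors and repair genes of DNA damage were called. None of 26 checkpoint genes and none of 34 mitosis genes was called by edgeR. The checkpoint kinases ATM, at 168 ± 10.6 and 182 ± 5.48 CPM, ATR, at 82.6 ± 3.03 and 68.9 ± 3.33 CPM, and CHEK1, at 64.2 ± 7.76 and 59.1 ± 5.39 CPM, had log2 differences of -0.11, 0.26 and 0.12. WEE1, the kinase that holds cells before mitosis, was at 63.5 ± 3.68 and 82.4 ± 5.02 CPM. Of 40 genes of double-strand break and crosslink repair, 1 was higher in each line. FANCF, a subunit of the Fanconi core complex, was at 17.3 ± 0.891 and 6.55 ± 1.58 CPM, and the nuclease DNA2 at 28.7 ± 4.21 and 61.1 ± 4.05 CPM (log2 -1.09 ± 0.10). DNA2 was at -0.97 and no longer called without MOLM13 replicate 2.

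MGMT, which removes alkyl groups from guanine, was the only call among 32 genes of mismatch, base and nucleotide excision repair, at 3.74, 3.75 and 3.19 CPM in MOLM13 and at 21.6, 22.5 and 22.3 CPM in OCIAML3 (log2 -2.63 ± 0.11). SLFN11, which blocks stressed replication forks, was at 139, 143 and 154 CPM in MOLM13 and at 82.7, 90.0 and 92.2 CPM in OCIAML3, a log2 difference of 0.72 ± 0.06 below the threshold. Of the proliferation genes, MKI67 was at 520.1 ± 13.8 and 646 ± 29.1 CPM, PCNA at 505 ± 27.6 and 284 ± 18.6 CPM and MCM2 at 383 ± 17.7 and 324 ± 9.71 CPM, none called. Of 42 replication genes 3 were called, all higher in MOLM13, or 7.14% against 13% of all genes. Among them was GMNN, the inhibitor of origin licensing, at 90 ± 10.2 and 38.4 ± 2.38 CPM.

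The regulators of p53 came next. The ubiquitin ligase MDM2 was at 136, 201 and 154 CPM against 244, 224 and 202 CPM (log2 -0.45 ± 0.13). MDM4, the inhibitor related to MDM2, was at 61.6 ± 4.57 and 123 ± 8.13 CPM. Its log2 difference of -0.995 ± 0.07 fell just short of the threshold. It passed the threshold without MOLM13 replicate 3 (-1.04) or without OCIAML3 replicate 2 (-1.05). It also passed with DESeq2 (-1.01), RLE scaling (-1.01), a stricter filter (-1.0026), protein-coding genes alone (-1.0025) and a transcript length offset (-1.12). HIPK2, the kinase that phosphorylates p53 for its death program, was at 5.55, 5.59 and 5.52 CPM in MOLM13 and at 216, 171 and 148 CPM in OCIAML3, 32.1-fold higher (log2 -5.00 ± 0.15, edgeR adjusted p = 1.42e-08). Of the 20 genes in the list of p53 and its regulators 4 were higher in OCIAML3, namely CDKN2A, TP63, HIPK2 and TP73, and 1 in MOLM13, the ribosomal protein gene RPL11. The share called was 25%, against 31.1% of all genes tested.

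At 9p21, the cell cycle inhibitors were silent in MOLM13. CDKN2A, which encodes the cell cycle inhibitor p16 and the MDM2 inhibitor ARF (chromosome 9, 21967752 to 21995301), was at 0 in every MOLM13 library and at 3.37, 3.21 and 3.17 CPM in OCIAML3, at least 31.2-fold higher. The adjacent inhibitor CDKN2B was at 0 against 1.94, 1.78 and 1.46 CPM. MTAP, the gene that lies beside them, was read in both lines, at 44.0, 41.8 and 44.7 CPM in MOLM13 and at 94.7, 97.7 and 104 CPM in OCIAML3 (log2 -1.18 ± 0.06). The long noncoding RNA CDKN2B-AS1, which spans this locus on the other strand, was higher in MOLM13 at 2.68, 2.25 and 2.92 CPM against 0.826, 0.98 and 0.745 CPM. The libraries keep no strand, so reads of overlapping genes on opposite strands cannot be told apart. MLLT3, the fusion partner of KMT2A in MOLM13 and also on 9p, was at 11.7 ± 0.385 and 4.88 ± 0.507 CPM (log2 1.26 ± 0.12), and reads of the fusion and of the normal allele were not separated. Copy number was not measured.

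Targets of p53 gave no common direction. Of 29 tested genes of arrest and repair 2 were higher in MOLM13 and 5 in OCIAML3, and of 12 genes of cell death 1 and 2. The shares called were 24.1% and 25%, against 31.1% of all genes tested. CDKN1A, which encodes the inhibitor p21, was at 109, 290.0 and 158 CPM in MOLM13 and at 102, 88.3 and 76.6 CPM in OCIAML3 (log2 1.06 ± 0.30, edgeR adjusted p = 0.0116). Its call rested on single libraries: it was 0.59 without MOLM13 replicate 2 and 0.95 without OCIAML3 replicate 3, both below the threshold. MOLM13 replicate 2 was the highest of its group in PHLDA3, MDM2 and LYZ too. TP53I3, a p53-induced oxidoreductase, was at 0.761 ± 0.306 and 7.62 ± 0.0887 CPM (log2 -3.31 ± 0.25), and the AKT inhibitor PHLDA3 at 16.4, 30.6 and 21.1 CPM against 54.2, 56.8 and 50.5 CPM (log2 -1.25 ± 0.18). PERP, a membrane protein of p53-dependent death, was at 0.115 ± 0.0872 and 21.8 ± 1.28 CPM (log2 -7.51 ± 0.26). The death gene BBC3, which encodes PUMA, was at 26.9 ± 2.04 and 20.4 ± 1.67 CPM and was not called.

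Of the guardians of mitochondria, BCL2 and MCL1 were ordered in opposite ways. BCL2 was at 193, 181 and 206 CPM in MOLM13 and at 122, 134 and 156 CPM in OCIAML3 (log2 0.50 ± 0.09). MCL1 was at 230.4, 254 and 246 CPM against 482, 476 and 476 CPM (log2 -0.97 ± 0.05), a value that moved to -1.002 and past the threshold without MOLM13 replicate 2. The TPM ratio of MCL1 to BCL2 was 2.33 ± 0.213 in MOLM13 and 6.53 ± 0.851 in OCIAML3 with no overlap. The exact two-sided permutation p was 0.1, the smallest that this design allows. It follows from the lack of overlap, so no conclusion is drawn from it. BCL2L1, which encodes BCL-XL, was at 21.7 ± 0.715 and 25.5 ± 1.23 CPM, and the only call among the 6 tested anti-apoptotic genes was BCL2A1, at 0.635 ± 0.313 and 2.04 ± 0.224 CPM.

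Among 11 pro-apoptotic members 2 were called, both higher in MOLM13, or 18.2% of the list against 31.1% of all genes called in either direction. BMF, a BH3-only sensor, was at 41.3, 45.3 and 46.0 CPM against 14.3, 10.5 and 13.2 CPM (log2 1.81 ± 0.11), and BIK at 35.4, 27.2 and 29.5 CPM against 5.56, 5.31 and 5.9 CPM (log2 2.46 ± 0.12). BCL2L11, which encodes BIM, was at 33.2 ± 10.1 and 48.6 ± 1.89 CPM, and the pore former BAK1 at 90.2 ± 7.33 and 56.8 ± 4.29 CPM, neither called. Of 22 genes of caspases and their regulators 3 were higher in MOLM13 and 1 in OCIAML3. In all, 18.2% of the list was called, against 31.1% of all genes tested. Higher in MOLM13 were the initiator CASP9 at 16.3 ± 1.46 and 7.27 ± 0.467 CPM, the effector CASP6 at 14.1 ± 0.486 and 4.57 ± 0.391 CPM, and the pore protein GSDME at 3.49 ± 0.978 and 0.722 ± 0.0902 CPM. GSDMD, the gasdermin of pyroptosis, was higher in OCIAML3 at 58.1 ± 8.47 against 22.6 ± 6.94 CPM. The apoptosome gene APAF1 had a log2 difference of -0.16. Of 14 tested genes of death receptors and their adaptors 1 was higher in MOLM13 and 2 in OCIAML3, a share of 21.4% against 31.1%. The TRAIL receptor TNFRSF10A was higher in MOLM13, at 35.6 ± 4.97 and 16.4 ± 2.41 CPM. TNFRSF21 was among those higher in OCIAML3, at 5 ± 1.93 and 47.2 ± 7.14 CPM.

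The lines differed in which G1 genes they expressed. Of 26 tested members 8 were higher in MOLM13 and 3 in OCIAML3. CCND2, 1 of the 3 D-type cyclins that drive CDK4 and CDK6, was at 28.7, 44.4 and 48.1 CPM in MOLM13 and at no more than 0.0972 CPM in OCIAML3, a ratio of 615 with a 95% exact counting interval from 298 to 1530.0. CCND1 showed the reverse, at 5.16, 8.45 and 7.01 CPM against 58.5, 48.4 and 58.4 CPM (log2 -3.0 ± 0.16), while CCND3 was at 287 ± 24.7 and 238 ± 4.04 CPM. CDK6 was at 438 ± 33.1 and 165 ± 4.98 CPM. RB1, the pocket protein these kinases inactivate, was at 179, 174 and 174 CPM against 62.8, 59.0 and 59.6 CPM (log2 1.54 ± 0.05, edgeR adjusted p = 1.5e-08). The inhibitor CDKN2C, p18, was at 287, 259 and 280.2 CPM against 33.4, 38.0 and 35.0 CPM (log2 2.96 ± 0.07), and the E2F repressor E2F7 was higher in MOLM13 as well (log2 2.17 ± 0.15). CCNA1, a cyclin of germ cells and leukemic blasts that was not on the list, was at 26.2 ± 2.78 and 0.261 ± 0.0563 CPM.

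Both lines expressed the HOXA cluster, and which line was higher turned along it. Of 17 tested genes and antisense RNAs of the cluster 8 were higher in MOLM13 and 5 in OCIAML3. The genes HOXA3, HOXA4, HOXA5, HOXA6 and HOXA7 were all higher in MOLM13, by log2 3.88 ± 0.15, 3.61 ± 0.28, 3.22 ± 0.17, 3.79 ± 0.24 and 5.84 ± 0.18. HOXA7 was at 22.4, 19.8 and 22.2 CPM there and at 0.381, 0.274 and 0.486 CPM in OCIAML3. HOXA9, the leukemic cofactor of MEIS1, was shared, at 119, 108 and 117 CPM and at 79.7, 86.3 and 92.4 CPM (log2 0.41 ± 0.07). Beyond HOXA9 the means were larger in OCIAML3, while the coding genes stayed well above the floor in MOLM13. HOXA10 was 63 ± 5.26 CPM in MOLM13 and 173 ± 5.02 CPM in OCIAML3 (log2 -1.46 ± 0.07), HOXA11 was 37.5 ± 1.83 and 71.5 ± 1.3 CPM (log2 -0.93 ± 0.05, not called), and HOXA13, the last gene of the cluster, was at 17.1, 12.7 and 14.5 CPM against 149, 145 and 146 CPM (log2 -3.31 ± 0.09). HOTTIP, the noncoding RNA beyond HOXA13 that lies on the other strand, was at 0.322 ± 0.116 and 54.6 ± 1.87 CPM, and HOXA11-AS at 9.18 ± 0.378 and 53.3 ± 4.24 CPM. With unstranded reads the antisense RNAs are uncertain where they overlap the coding genes.

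**Figure D3:**
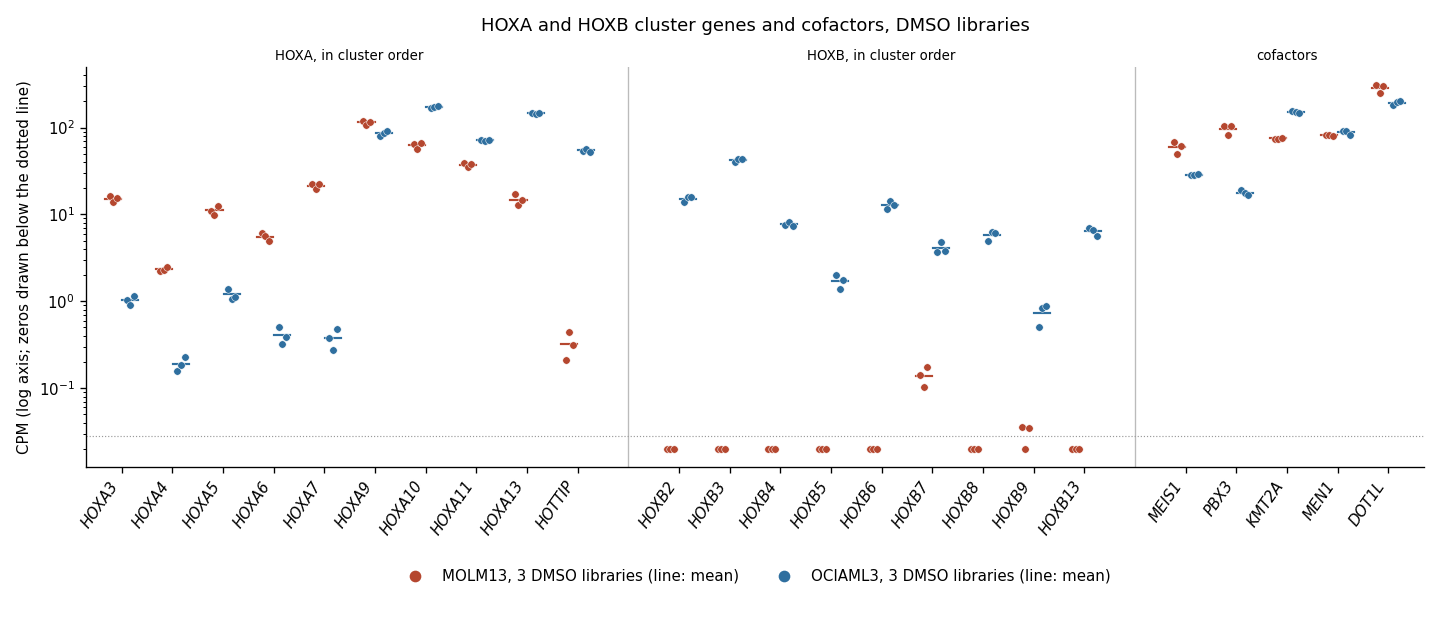
Level in counts-per-million (log axis) of HOXA and HOXB genes in their order along the clusters and of HOX cofactors, with 1 point for each of the 3 DMSO libraries of MOLM13 (red) and OCIAML3 (blue), a line at each mean above the dotted line, and zeros drawn below it. HOXA3 to HOXA7 are higher in MOLM13, HOXA10 to HOXA13 are higher in OCIAML3, and HOXB genes are at or near 0 in MOLM13.

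The HOXB cluster was expressed in OCIAML3 and at most in traces in MOLM13. All 11 tested members, 2 antisense RNAs included, were higher there, and 9 of them were at 0 in every MOLM13 library. HOXB3 was at 40.6, 43.6 and 44.0 CPM in OCIAML3, at least 411-fold higher, HOXB2 at 13.8, 15.8 and 15.9 CPM, at least 146-fold, and HOXB6 at 11.5, 14.1 and 12.8 CPM, at least 123-fold. HOXB4 was at 7.74 ± 0.41 CPM and HOXB13, apart from the rest of the cluster, at 6.46 ± 0.682 CPM. HOXB7 was at 0.139 ± 0.0357 CPM in MOLM13 against 4.11 ± 0.672 CPM in OCIAML3. Among 21 cofactors and members of the KMT2A complex 4 were higher in each line. PBX3, a HOX dimer partner, was at 105, 81.7 and 105 CPM in MOLM13 and at 19, 17.5 and 16.6 CPM in OCIAML3 (log2 2.46 ± 0.11). MEIS1 was at 67.9, 50.3 and 60.9 CPM against 28.4, 28.3 and 29.5 CPM (log2 1.06 ± 0.10), and its call was lost without MOLM13 replicate 1, at 0.96.

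KMT2A itself was at 75 ± 1.78 CPM in MOLM13 against 151 ± 4.25 CPM in OCIAML3 (log2 -1.01 ± 0.05). It lay on the threshold and was not called without MOLM13 replicate 1 (-0.98), without MOLM13 replicate 2 (-0.999) or without OCIAML3 replicate 1 (-0.99). Its partners in transcription, MEN1 at 81.9 ± 1.46 and 88.4 ± 4.4 CPM and DOT1L at 286 ± 32.8 and 193 ± 9.31 CPM, were not called. NPM1 was at 1676 ± 71 and 1273 ± 18.1 CPM, and levels do not show the mutation.

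Growth factor signalling carried some of the largest differences. FLT3, the receptor that is constitutively active in MOLM13 (chromosome 13, 28003274 to 28100592), was at 381, 335 and 407 CPM there and at 6.26, 6.11 and 11.5 CPM in OCIAML3, 47.6-fold higher (log2 5.57 ± 0.22, edgeR adjusted p = 5.55e-08). Of 26 tested receptors 5 were higher in each line, a share called of 38.5% against 31.1% of all genes tested. IL2RA, the interleukin-2 receptor alpha chain, was at 5.19, 3.37 and 9.75 CPM in MOLM13 and at 0 in OCIAML3, and the receptor kinase AXL at 8.28 ± 1.51 against 0.847 ± 0.156 CPM. EGFR was at 2.89 ± 0.459 CPM in OCIAML3 and at 0 in MOLM13, at least 27.7-fold higher, and FGFR1 at 17.9 ± 2.86 against 5.29 ± 0.67 CPM. Myeloid cytokine receptors were closer, with CSF1R at 26 ± 4.24 and 15.9 ± 2.84 CPM, CSF3R at 148 ± 16.1 and 101 ± 2.31 CPM and CSF2RB at 23.5 ± 2.58 and 39.8 ± 0.348 CPM, none called.

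STAT5, which internal tandem duplications of FLT3 activate, was higher in MOLM13 at the level of its own RNA. STAT5A was at 58.3, 60.0 and 59.2 CPM against 0.921, 1.3 and 0.777 CPM (log2 5.84 ± 0.14, edgeR adjusted p = 4.03e-09), and STAT5B at 79.5, 76.5 and 80.5 CPM against 36.8, 36.5 and 37.1 CPM (log2 1.10 ± 0.05). Per length, STAT5B was the main form in OCIAML3, at 11.7 TPM against 0.356 TPM for STAT5A, while the 2 were at 21.7 and 18.5 TPM in MOLM13. Of 27 genes of the STAT5 and FLT3-ITD output list, all tested, 10 were higher in MOLM13 and 3 in OCIAML3 (37% and 11.1% of the list), with a median log2 fold change of 0.33. SOCS2, a feedback inhibitor of cytokine receptors, was at 189, 169.7 and 198 CPM in MOLM13 and at 0.635, 0.98 and 1.85 CPM in OCIAML3 (log2 7.35 ± 0.20). PIM1, a survival kinase induced by STAT5, was at 128, 102 and 202 CPM against 8.13, 8.03 and 10.6 CPM (log2 4.02 ± 0.26), and SOCS1 at 14.4 ± 2.55 against 0.887 ± 0.372 CPM. CISH was at 78.1, 69.8 and 95.3 CPM against 12.7, 12.2 and 13.9 CPM (log2 2.65 ± 0.12).

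Of 28 tested genes of the MYC network and ribosome biogenesis 4 were higher in MOLM13 and none in OCIAML3, with a median of 0.27. These calls were 14.3% of the list, close to the 13% of all genes that were higher in MOLM13. MYC was at 750.2, 556 and 799.9 CPM in MOLM13 and at 249, 237 and 248 CPM in OCIAML3 (log2 1.52 ± 0.12). The members of the STAT5 list that were higher in OCIAML3 were the inhibitors of differentiation ID1, at 109 ± 4.78 against 8.01 ± 0.261 CPM, and ID2, and the G protein regulator RGS2. BCL6 and SOCS3 had log2 values of -0.30 and 0.44 and were not called.

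CISH is shown with its promoter because it is a textbook STAT5 target and because the site that STAT5 dimers bind, TTCNNNGAA, is short enough to be read by eye. The stretch below is from RefSeq, GRCh38.p14, chr3:50611865-50612024, minus strand, from 250 to 91 bases before the gene's start, 5′ to 3′, with each match of TTCNNNGAA in capitals:
CISH promoter: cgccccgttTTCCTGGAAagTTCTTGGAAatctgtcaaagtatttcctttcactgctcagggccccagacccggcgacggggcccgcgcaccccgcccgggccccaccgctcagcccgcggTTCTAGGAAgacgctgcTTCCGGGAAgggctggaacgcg
The motif equals its own reverse complement, so that 1 strand was read, and the 4 matches lie in pairs. Of 35116 promoters of 300 bases, 2689 (7.66%) held at least 1 match and 7 (0.0199%) at least 4. Of the 27 genes of the list 17 had a promoter in the reference table and CISH was the only 1 with a match, so the matches do not extend to the other members in this window. A match is a description of the sequence, and binding was not measured.

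**Figure D4:**
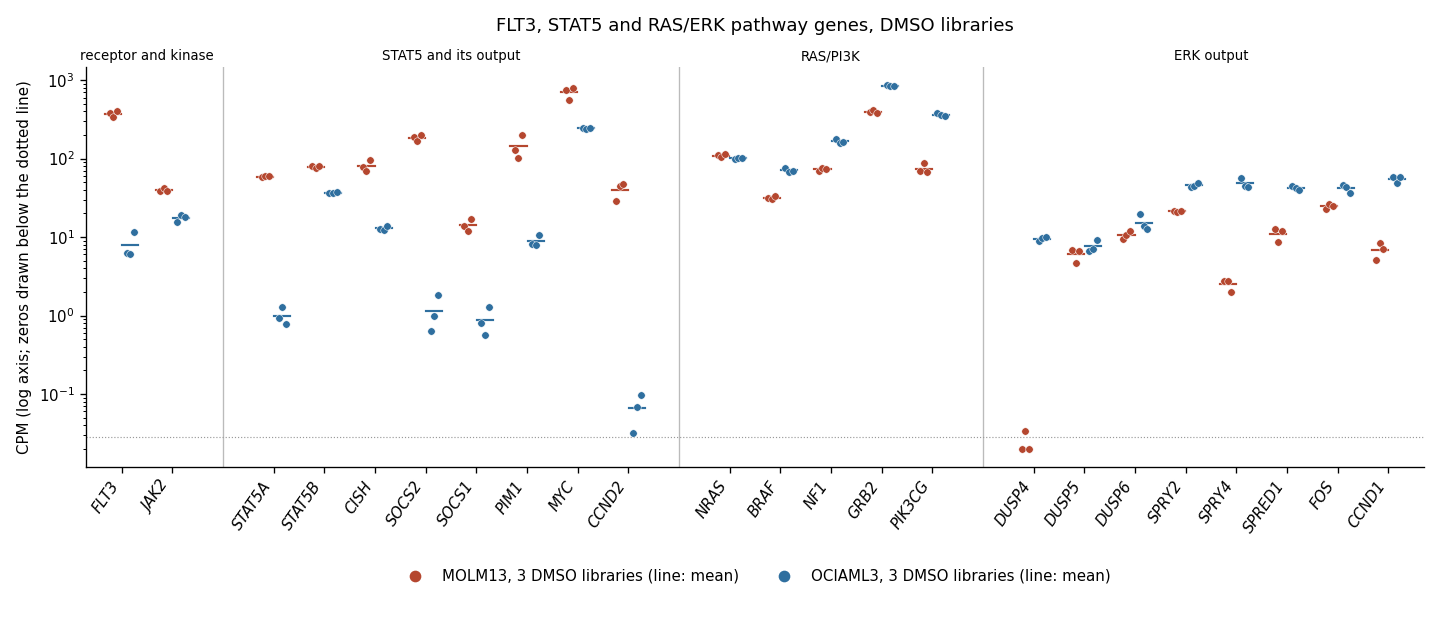
Level in counts-per-million (log axis) of FLT3, JAK2, STAT5 genes and their output, of RAS and PI3K components and of ERK output genes, with 1 point for each of the 3 DMSO libraries of MOLM13 (red) and OCIAML3 (blue), a line at each mean above the dotted line, and zeros drawn below it. FLT3, STAT5A, SOCS2 and CCND2 are higher in MOLM13, and DUSP4, SPRY4 and CCND1 are higher in OCIAML3.

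Of 30 tested components of the RAS, MAPK and PI3K paths 7 were higher in OCIAML3 and 1 in MOLM13, or 23.3% and 3.33% of the list against 18.1% and 13% of all genes, with a median log2 fold change of -0.26. PIK3CG, the gamma catalytic subunit of PI3 kinase in leukocytes, was at 68.7, 87.9 and 66.9 CPM in MOLM13 and at 383, 357 and 348 CPM in OCIAML3 (log2 -2.28 ± 0.10). RRAS2, a RAS relative, was at no more than 0.104 CPM in MOLM13 and at 9.86 ± 0.651 CPM in OCIAML3. BRAF was at 31.7 ± 1.36 and 70.6 ± 4.04 CPM, the adaptor GRB2 at 398 ± 18 and 844 ± 12.7 CPM, and NF1, which turns RAS off, at 73.3 ± 3.03 and 167 ± 10.2 CPM. NRAS, mutated in OCIAML3, was at 109 ± 4.49 and 101 ± 1.9 CPM and was not called.

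Output genes of ERK followed a mixed course, with 8 of 27 tested members higher in OCIAML3 and 3 in MOLM13. The phosphatase DUSP4 was at 8.86, 9.85 and 10.0 CPM in OCIAML3 and at 0, 0.0341 and 0 CPM in MOLM13. SPRY4, a feedback inhibitor of receptor kinases, was at 2.79, 2.73 and 1.98 CPM in MOLM13 and at 56.9, 45.4 and 43.9 CPM in OCIAML3 (log2 -4.28 ± 0.16), SPRED1 at 11.1 ± 2.09 against 42.7 ± 2.47 CPM (log2 -1.95 ± 0.13) and SPRY2 at 21.3 ± 0.257 against 45.5 ± 2.4 CPM (log2 -1.09 ± 0.06). JUN was at 3.27 ± 1.68 and 11.5 ± 1.93 CPM. DUSP6 and DUSP5, the genes most often read as ERK activity, were at 10.7 ± 1.24 and 15.3 ± 3.72 CPM and at 6.04 ± 1.16 and 7.64 ± 1.29 CPM and were not called, nor was EGR1 at 15.8 ± 7.32 and 19.7 ± 4.73 CPM.

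Myeloid state set the lines apart, with granule genes higher in MOLM13 and monocyte genes higher in OCIAML3. Of 19 tested granule genes 10 were higher in MOLM13 and 3 in OCIAML3, with a median log2 fold change of 1.18. PRTN3, which encodes proteinase 3, was at 6797, 7106 and 6922 CPM in MOLM13 and at 347, 316 and 294 CPM in OCIAML3 (log2 4.44 ± 0.07, edgeR adjusted p = 7.44e-10). MPO, myeloperoxidase, was at 57.3, 49.3 and 51.0 CPM against 2.51, 1.87 and 2.43 CPM (log2 4.55 ± 0.12), and ELANE, neutrophil elastase, at 1635 ± 37.5 against 716 ± 33.1 CPM. Eosinophil granule genes were found in MOLM13, with PRG2 at 362, 441 and 387 CPM against 0.445, 0 and 0.324 CPM, and EPX at 12.4 ± 4.01 against 0.0808 ± 0.0288 CPM. The 3 members higher in OCIAML3 were CTSG, cathepsin G, at 168, 186 and 164 CPM in MOLM13 against 1441, 1552 and 1793 CPM in OCIAML3 (log2 -3.21 ± 0.09), MS4A3 (log2 -2.54 ± 0.24) and PLAC8 (log2 -1.15 ± 0.12).

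Of 35 tested monocyte and macrophage markers 17 were higher in OCIAML3 and 5 in MOLM13. VCAN, the proteoglycan of classical monocytes, was at 1043, 708 and 504 CPM in OCIAML3 and at 0.106, 0.681 and 0.174 CPM in MOLM13 (log2 -11.16 ± 0.45). The scavenger receptor CD163 was at 48.7, 38.6 and 20.3 CPM in OCIAML3 and at 0 in MOLM13, at least 345-fold higher. CD36 was at 206, 192 and 180.2 CPM in OCIAML3 against 9.18, 6.78 and 7.6 CPM in MOLM13. CD14, the lipopolysaccharide receptor that defines monocytes, was at 17.4, 7.71 and 7.74 CPM in OCIAML3 against 0.141, 0.204 and 0.174 CPM in MOLM13, and the calprotectin genes S100A8 and S100A9 were higher in OCIAML3 too, at log2 -3.42 ± 0.26 and -4.06 ± 0.21. The lysosomal marker CD68 was at 255 ± 12 CPM in OCIAML3 and 61.2 ± 13.7 CPM in MOLM13. LYZ, lysozyme, was called higher in MOLM13, at 705, 1784 and 1010.2 CPM against 539.7, 440.4 and 370.4 CPM (log2 1.37 ± 0.30), and it was 0.93 and not called without MOLM13 replicate 2. ITGAM, the integrin CD11b, was also higher in MOLM13, at 20.3 ± 5.79 against 7.48 ± 0.73 CPM.

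The transcription factors behind these programs differed in a subset. Of 40 tested, 4 were higher in MOLM13 and 11 in OCIAML3. GATA2, a factor of progenitors and of eosinophils and mast cells, was at 62.6, 68.3 and 67.6 CPM in MOLM13 and at 1.4, 1.3 and 1.72 CPM in OCIAML3 (log2 5.50 ± 0.10, edgeR adjusted p = 1.47e-09). Higher in OCIAML3 were KLF4, at 4.75 ± 0.617 CPM in MOLM13 against 30.9 ± 1.38 CPM in OCIAML3, CEBPB, at 21.1 ± 2.36 against 111 ± 10.1 CPM, and TCF4, a factor of dendritic and B cells, at 4.42 ± 0.99 against 75.3 ± 5.44 CPM. IRF8 was at 597 ± 42.1 and 1241 ± 40.2 CPM (log2 -1.06 ± 0.06), and at -0.99 and not called without MOLM13 replicate 2. The general factors SPI1, at 252 ± 18.1 and 287 ± 5.52 CPM, RUNX1, at 229 ± 17.6 and 128 ± 5.57 CPM, and GFI1, at 240.2 ± 7.41 and 167 ± 14.2 CPM, were not called. Of 17 tested stem and progenitor markers 7 were higher in MOLM13 and 5 in OCIAML3. Of the surface antigens used as AML targets, CD33 was at 132 ± 12.5 and 71.8 ± 2.35 CPM and CD38 at 48.1 ± 1.53 and 65.4 ± 4.81 CPM, with log2 values of 0.88 and -0.44. WT1, an AML antigen, was at 64.3 ± 3.54 and 3.5 ± 0.702 CPM (log2 4.21 ± 0.12).

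Inflammatory genes were counted next. Of 23 tested chemokines and cytokines 13 were higher in OCIAML3 and 4 in MOLM13, with a median log2 fold change of -1.92. CXCL1 was at 77.4, 75.9 and 70.8 CPM in OCIAML3 and at 0 in MOLM13, CXCL8 at 113, 102 and 109 CPM against 3.29, 7.77 and 5.28 CPM (log2 -4.30 ± 0.21), and IL1B at 17.5 ± 3.19 against 0.645 ± 0.243 CPM. Hepatocyte growth factor HGF, the ligand of MET, was at 10.2 ± 0.574 CPM in OCIAML3 against 0.661 ± 0.195 CPM in MOLM13. Among 20 tested genes of NF-kB and its feedback 5 were higher in OCIAML3 and 1 in MOLM13. The share called was 30%, against 31.1% of all genes tested. TNFAIP3, which ends NF-kB signals, was the 1 higher in MOLM13, at 64.2 ± 14.7 against 19.1 ± 0.453 CPM. NFKBIA, the main inhibitor of NF-kB, was at 22.7 ± 0.168 and 48.9 ± 3.99 CPM (log2 -1.10 ± 0.07).

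Interferon-stimulated genes, which include SAMHD1, were higher in OCIAML3 for 14 of 36 tested members and in MOLM13 for 2. MX2 was at 72.2 ± 1.81 CPM in OCIAML3 and 6.6 ± 1.54 CPM in MOLM13, the antiviral synthetase OAS2 at 12 ± 1.89 and 0.728 ± 0.302 CPM, OAS3 at 9.85 ± 2.56 and 0.589 ± 0.0587 CPM, and IFI6 at 17.4 ± 3.15 and 2.18 ± 0.69 CPM. OAS1 was at -1.09 ± 0.20 on the log2 scale, and at -0.93 and not called without MOLM13 replicate 1. ISG15, a ubiquitin-like modifier induced by interferon, was at 10.1 ± 1.54 CPM in MOLM13 against 7.9 ± 1.34 CPM in OCIAML3 and was not called. Of 5 tested cytidine deaminases of the APOBEC3 family 1 was higher in MOLM13 and 3 in OCIAML3. APOBEC3B, the nuclear member, was at 16.8, 27.4 and 14.9 CPM in MOLM13 and at 6.51, 6.91 and 7.29 CPM in OCIAML3 (log2 1.51 ± 0.22), while APOBEC3G was at 3.38 ± 0.997 and 19.7 ± 1.37 CPM (log2 -2.54 ± 0.19) and APOBEC3F at 0.162 ± 0.106 and 3.69 ± 0.565 CPM. These paralogs are similar in sequence and part of their reads may be shared.

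Lipid and detoxifying genes held further differences. Of 27 tested genes of cholesterol and fatty acid synthesis 7 were higher in MOLM13 and 3 in OCIAML3, with a median of 0.51. The feedback gene INSIG1 was at 311, 153 and 347 CPM in MOLM13 and at 84.9, 82.1 and 82.2 CPM in OCIAML3 (log2 1.70 ± 0.25). HMGCS1, an early enzyme of the mevalonate path, was at 187, 105 and 275 CPM against 76.4, 76.6 and 78.5 CPM (log2 1.29 ± 0.28) and the desaturase SCD at 1106, 647 and 1244 CPM against 465, 419 and 445 CPM (log2 1.17 ± 0.20). Both calls were lost without MOLM13 replicate 3, at 0.93 and 0.99, and MOLM13 replicate 2 was the lowest of its group in all 3 genes. The fatty acid elongase ELOVL6 was at 38.6, 33.3 and 41.0 CPM in MOLM13 and at no more than 0.0648 CPM in OCIAML3. The sterol exporter ABCA1 and its regulator NR1H3, the liver X receptor alpha, were higher in OCIAML3, at 16.7 ± 6.39 against 2.05 ± 0.446 CPM and at 19.8 ± 1.82 against 1.51 ± 0.374 CPM. Serum content and medium differ between the cultures, and any part they have in this list cannot be told apart from that of the line.

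Among 20 tested retinoid, aldehyde and xenobiotic enzymes 4 were higher in MOLM13 and 7 in OCIAML3. The aldehyde dehydrogenases ALDH1A1, at 17.5, 15.8 and 14.1 CPM, and ALDH7A1, at 13.1 ± 1.64 CPM, were found in OCIAML3 and at 0 in MOLM13, at least 152-fold and 126-fold higher, and ALDH2 was at 38.3 ± 7.89 against 6.81 ± 1.85 CPM. ALDH1A3 had the opposite order, at 26.7 ± 4.82 CPM in MOLM13 against 1.61 ± 0.291 CPM in OCIAML3. CYP1B1, a cytochrome P450 induced by the aryl hydrocarbon receptor AHR, was at 220.3, 465 and 248 CPM in MOLM13 and at 8.16, 4.83 and 3.43 CPM in OCIAML3 (log2 5.83 ± 0.38), and AHR itself at 40.2 ± 3.91 and 13.9 ± 0.932 CPM. Of 26 tested genes of serine synthesis and ATF4 output 5 were higher in MOLM13 and 2 in OCIAML3, with a median of 0.30. The share called was 26.9%, against 31.1% of all genes tested. CBS, the first enzyme of transsulfuration, was at 37.8 ± 3.32 and 214 ± 8.61 CPM, and ASS1, the argininosuccinate synthase, at 155 ± 5.3 and 51.2 ± 9.18 CPM.

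Adhesion genes were called 7 to 7 among 26 tested members. ITGAL, the alpha chain of the leukocyte integrin LFA-1, was at 1023, 919.6 and 1069 CPM in MOLM13 and at 23.7, 21.5 and 21.3 CPM in OCIAML3 (log2 5.50 ± 0.08, edgeR adjusted p = 7.44e-10). Its beta chain ITGB2 was higher in OCIAML3, at 667 ± 66.7 against 288 ± 36.3 CPM, and the collagen receptor chain ITGA1 was at 23.5 ± 0.96 CPM in OCIAML3 and at most at 0.0353 CPM in MOLM13. SELPLG, the ligand of P-selectin, was at 169 ± 14.7 and 45.7 ± 0.617 CPM. CXCR4, which holds blasts in the marrow, was at 82.6 ± 5.98 and 157 ± 1.12 CPM, a log2 difference of -0.93 ± 0.06 that was not called. In the list of 32 DNA and chromatin modifiers mutated in AML the only call was WT1, which is itself a transcription factor. DNMT3A was at log2 -0.956 and not called, and at -1.035 and called without MOLM13 replicate 2. TET2 was at 48.1 ± 1.61 and 36.7 ± 1.04 CPM and IDH2 at 202 ± 24.6 and 156 ± 8.28 CPM.

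Median differences were uneven along chromosomes. The median log2 fold change of the 12308 tested protein-coding autosomal genes was 0.00. Chromosome 13q stood highest, with a median of 0.81 over 218 genes, 85 of them higher in MOLM13 and 26 in OCIAML3. Its window from 40 to 50 Mb, which holds RB1, had a median of 1.66 over 48 genes, 40 of them higher in MOLM13. FLT3 and DACH1 also lie on 13q. Chromosome 6 followed with 0.58 over 616 genes, 20p with 0.54 over 120, chromosome 8, which carries MYC, with 0.40 over 438 and chromosome 19 with 0.36 over 971. The lowest were 5p, with -0.94 over 98 genes, 5 of them higher in MOLM13 and 43 in OCIAML3, 1q with -0.65 over 595, 7q with -0.43 over 400 and 17q with -0.30 over 563. MDM4 lies on 1q and shared its direction. Taken per library against the mean of the other line, these medians had an SD (both lines combined) of 0.0152 to 0.0459 over libraries. Copy number was not measured, so a copy number difference and a difference in expression cannot be told apart, and genes of 1 arm are not independent of each other. The log2 fold change of RB1, 1.54, was above the median of 13q and below that of its own window, while FLT3, at 5.57, and SAMHD1, at -1.82 on 20q with its median of -0.16, lay well outside the median of their arm.

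**Figure D5:**
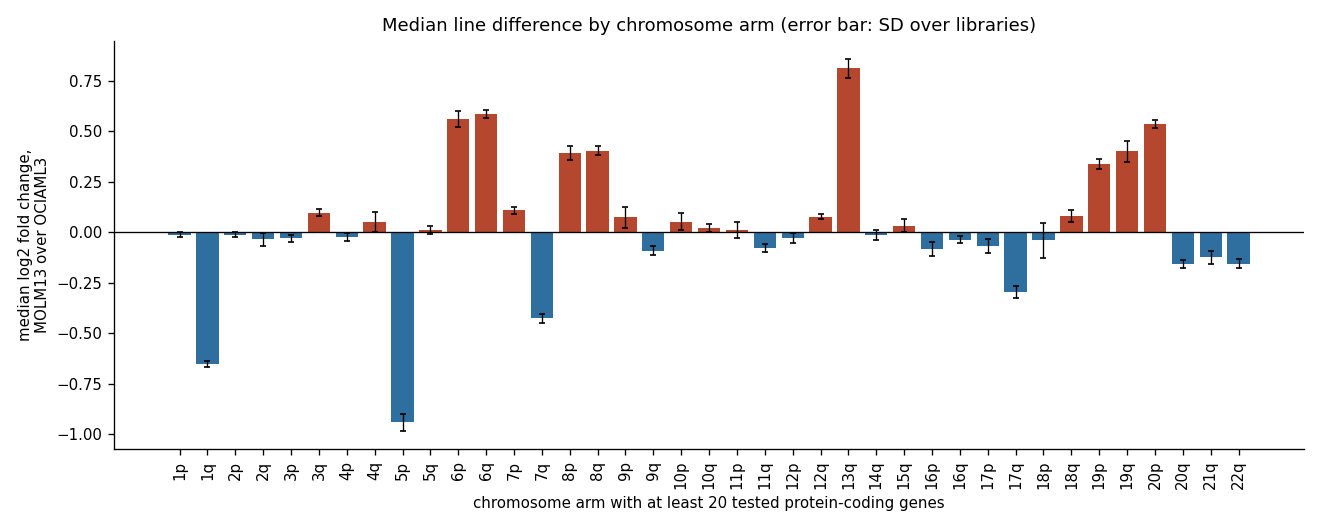
Median log2 fold change of MOLM13 over OCIAML3 of the tested protein-coding genes on each chromosome arm with at least 20 of them, with error bars for the SD over libraries. Bars above 0 (red) are higher in MOLM13, led by 13q at 0.81, and bars below 0 (blue) are higher in OCIAML3, led by 5p at -0.94.

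The same contrast was made in other libraries of the lines, those treated for 24 h with cytarabine at 0.1 µM, daunorubicin at 0.02 µM or both, which share no sample with the DMSO contrast. Each treated contrast includes the drug's own effect on each line. OCIAML3 replicate 3 of cytarabine and of the combination stood apart in earlier work, and the treated values given here include both libraries. In these fits 31.9%, 34.3% and 32.1% of genes were called. Those higher in MOLM13 were 16.6% under cytarabine, 16.7% under daunorubicin and 15.9% under the combination, and those higher in OCIAML3 were 15.3%, 17.6% and 16.2%. Of the 4789 genes called in DMSO, 3694 (77.1%) kept call and direction under cytarabine (4686 of them were tested there), 3675 (76.7%) under daunorubicin and 3593 (75%) under the combination, and 9, 4 and 2 were called the other way. SLC29A2 stayed higher in MOLM13 at log2 4.93 ± 0.18, 4.20 ± 0.28 and 4.48 ± 0.30. SAMHD1 stayed higher in OCIAML3 by less than in DMSO, at -1.12 ± 0.10, -1.05 ± 0.08 and -1.02 ± 0.13, and NT5C3B was at -5.15 ± 0.12, -5.44 ± 0.15 and -5.26 ± 0.21. FLT3 was at 6.00 ± 0.13, 6.70 ± 0.46 and 6.40 ± 0.78, STAT5A at 5.45 ± 0.10, 5.17 ± 0.13 and 5.17 ± 0.21 and HIPK2 at -3.74 ± 0.13, -3.82 ± 0.24 and -3.71 ± 0.43.

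Other genes named above had the following values in the treated libraries. SLC29A1, uncalled in DMSO at 0.24, was at -0.31 ± 0.12 under cytarabine and was called higher in OCIAML3 under daunorubicin at -1.57 ± 0.25 and under the combination at -1.50 ± 0.50. MYC was at 0.19 ± 0.12 and not called under cytarabine, and at 1.09 ± 0.14 and 1.09 ± 0.23 under the others. CDKN1A was at 3.16 ± 0.47 under cytarabine, 1.03 ± 0.39 under daunorubicin and 0.99 ± 0.81 under the combination. HMOX1 was at 0.11 ± 0.26 under cytarabine and PHLDA3 at -0.09 ± 0.21. The sterol genes INSIG1, HMGCS1 and SCD were called in none of the 3 treatments. BMF reached 3.08 ± 0.08, 3.12 ± 0.08 and 3.02 ± 0.30, and BCL2 passed the threshold under daunorubicin alone at 1.05 ± 0.19. The change of the line difference between treatments was not tested.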

How the data were processed

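Total RNA of 3 MOLM13 and 3 OCIAML3 cultures given DMSO for 24 h was read as unstranded paired ends. Per the labels and the submitters' processing notes, reads were checked with FastQC 0.11.9 and quantified per transcript on GRCh38 with Salmon 1.8.0, and the authors used edgeR 3.38.1. The study's methods name Ensembl coding and non-coding transcripts of GRCh38 as the reference, with the genome as decoy. The Ensembl release is not given in the sources used here. The deposited values are estimated counts per transcript (expected counts), with transcripts-per-million (TPM) beside them. They were summed per gene with the GENCODE annotation of GRCh38, which matched 235378 of 252199 transcripts, and rounded to whole numbers. Of 59041 genes, 2911 on chromosomes X and Y were left out.

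Counts were filtered with filterByExpr (minimum count 10, minimum total 15), scaled by TMM and fitted on the 6 libraries with the quasi-likelihood test of edgeR 4.0.16 in R 4.3.3. CPM are counts-per-million of the TMM-scaled library and SE is that of the log2 fold change. Bounds given as at least N-fold set a silent gene to 3 counts in each library. Intervals and floors cover counting error only. The script was tested on simulated counts of 15396 genes. Of these, 200 were changed, in both directions and picked among the better expressed genes. Of the 67 changed by 1.5 on the log2 scale, 97% were called with the right sign, and 3 of 15196 unchanged genes were called. Far fewer genes were changed there than the 31.1% called here, so the simulation does not cover a contrast of this size. Replicate counts differed by more than sampling noise in every pair, so no library was counted as a repeat deposit. Same-numbered libraries of the 2 lines did not deviate together (r of -0.0744, 0.0562 and -0.00325 across genes), so the main fit had no block.

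The genes named were the 10 coding genes with the largest fitted log2 fold change in each direction (called, averaging 5 CPM or more in the higher line, libraries not overlapping), members of the gene lists, and genes named by the study. Exceptions are stated where they occur, and some genes are not reported here. The libraries, lists and tests were chosen with earlier results of these data known. Alternatives were other scalings (RLE), filters, tests (DESeq2 1.42.0, glmTreat), length offsets, larger sets of libraries, a replicate block and leaving out each library. Chromosome arms were divided at approximate centromere positions.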

Additional observations from a re-analysis of the deposited data

How the results depend on the processing

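With no fold threshold the genes called higher in MOLM13 rose from 2001 to 5343, those higher in OCIAML3 from 2788 to 5499 and the called members of all gene lists from 294 to 731. Genes silent in 1 line were 48 (found in MOLM13) and 100 (found in OCIAML3) with a limit of 0 counts per library, and 128 and 253 with a limit of 10, against 84 and 158. With a minimum of 1 CPM in 3 libraries the medians of chromosome 6 and of 1q were 0.60 and -0.63, against 0.58 and -0.65, that of 20q was -0.14 against -0.16, and those of 13q, 20p, 5p, 7q, 17q and chromosomes 8 and 19 moved by less than their SD. Leaving out 1 library gave 2001 to 2100 genes higher in MOLM13, 2765 to 3006 higher in OCIAML3 and 298 to 308 called list members. DESeq2 called 1915 and 2751, RLE scaling 1974 and 2823, a test against a log2 change of 1 (glmTreat) 1431 and 2139, no filter 2462 and 3478, and the fit of all 24 libraries of both lines 2972 and 3173. With a replicate block the counts were 1954 and 2741, and of the genes named CDKN1A lost its call (0.96), with no other call of a named gene changed. Of the 183 called genes named in the text, 152 kept their call in every alternative, 31 lost it in at least 1, 24 of them under glmTreat, and none changed sign. The transcript length offset ended the calls of BRAF (-0.95), KMT2A (-0.97), MTAP (-0.99), OAS1 (-0.93), RBBP8 (0.97), SMARCB1 (0.52) and SOD2. Of the uncalled ones 10 changed sign, all in the fit of 24 libraries, which mixes treated with untreated cells: ATM 0.13, ATR -0.10, CBR1 -0.23, CHEK1 -0.73, DCK -0.14, MCM2 -0.67, MDM2 0.42, NT5C3A -0.17, SLC29A1 -0.78 and TYMS -0.31. OCIAML3 replicate 3 of cytarabine and of the combination stood apart in earlier work. Without these libraries the genes that kept call and direction numbered 3675 under cytarabine and 3646 under the combination, against 3694 and 3593. Levels under 0.0684 to 0.106 CPM, 3 counts in a library, could not be told from 0 at this depth.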

Other observations

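Zinc finger genes of chromosome 19 departed from the rest of that chromosome; they were looked at after values were seen and no test was made. Of 206 tested coding genes named ZNF or ZFP on chromosome 19, 16 were higher in MOLM13 and 64 in OCIAML3, with a median log2 fold change of 0.05. The other 765 tested coding genes of the chromosome had 146 and 86 such calls and a median of 0.42. Of the zinc finger genes 2 were silent in OCIAML3 and 15 were silent in MOLM13, against 4 and 2 of the others. These genes lie in clusters of near copies, so that reads may be shared among neighbours.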
